A study of Homo sapiens with 2 samples.

Results

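This account covers 10 genes of the myeloid lineage in the human line LOUCY, which the labels give as T-ALL, a leukaemia of immature T cells. The genes were CEBPA, NFE2, CSF3R, CSF1R, CD33, CD14, ANPEP, MPO, LYZ and S100A8. A peak of histone H3 lysine 27 acetylation (H3K27ac) was taken when it overlapped, by 1 bp or more, the gene body or the 15 kb on either side of it in hg19. This gave 21 of the 52203 peaks of the list, in windows that summed to 454 kb. The study held 1 H3K27ac ChIP library and 1 library of input DNA, both from LOUCY cells grown in RPMI medium with serum, with no treatment named beyond cross-linking. There were 62626946 ChIP tags and 74212738 input tags before filtering. With no replicates, every value describes this pair of libraries and no difference was tested. The gene bodies were given to the nearest 1 kb, so positions relative to a gene carry that rounding. The defining T-cell, B-cell and erythroid markers could not be placed in hg19 with the annotation used here, so the labelled cell type was not checked against them.

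H3K27ac marks active promoters and enhancers, and a wide, strong block over a gene start usually accompanies transcription. Granulocytes and monocytes arise from progenitors in which C/EBP-alpha and PU.1 switch on receptors for colony-stimulating factors, surface antigens and the proteins of the granules. Early T-cell precursors branch from progenitors that still have myeloid potential, and leukaemias of that stage, of which LOUCY is widely used as a model, are defined in the clinic in part by myeloid surface antigens such as CD13 and CD33. The mark shows where chromatin was acetylated, not whether a gene was expressed.

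The 10 genes fell into 3 kinds. A peak lay within 1 kb of the start of 4 genes, NFE2, CD33, MPO and LYZ. Another 4 genes, CEBPA, CSF3R, CSF1R and CD14, had peaks in the window but none at the start. The remaining 2, ANPEP and S100A8, had no peak in the whole window. Of the 4 peaks at starts, only that of NFE2 reached a fold enrichment over input of 6, and that of LYZ was below the median of the whole list. Fold here is the authors' value per peak, the ChIP pileup over the local control level.

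**Figure D1:**
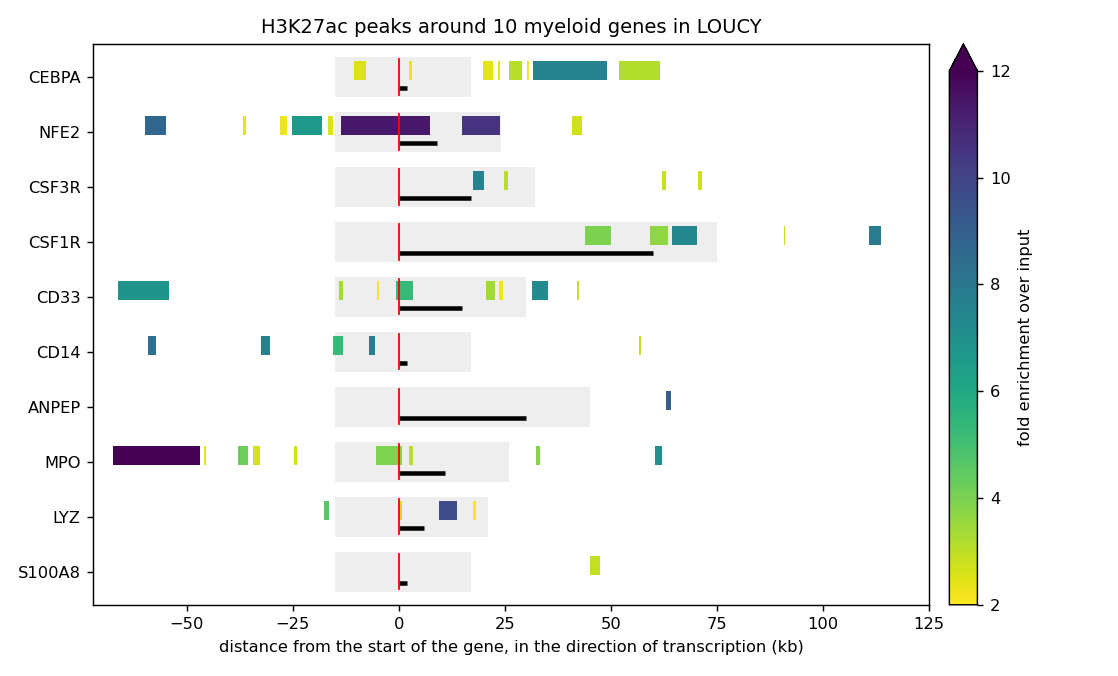
Each row is 1 gene, drawn in the direction of transcription, with distance from its start in kb on the x axis. The black line is the gene body, the red tick its start, the grey band the window of 15 kb either side, and the coloured boxes are peaks up to 60 kb from the gene, shaded by fold over input with values above 12 in the darkest shade. NFE2 is the only gene with a peak of fold 6 or more across its start, and ANPEP and S100A8 have empty bands.

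Promoter sequences, 250 bases before to 50 after a start, were found in RefSeq (GRCh38.p14) for 7 of the 10 genes. Those of CD33, CEBPA and CD14 are shown because the gene start placed in hg19 had a peak at CD33 and none at CEBPA and CD14. They are examples, and the other promoters of the table do not all follow their order. The capitals mark GAGGAA on either strand (read as TTCCTC on the other strand), the core recognised by PU.1, a master regulator of myeloid cells. The coordinates are in GRCh38.p14 and cannot be set against the hg19 peaks. Whether the CD33 sequence lies under the CD33 peak was therefore not checked.
CD33, chr19:51224830-51225129, plus strand: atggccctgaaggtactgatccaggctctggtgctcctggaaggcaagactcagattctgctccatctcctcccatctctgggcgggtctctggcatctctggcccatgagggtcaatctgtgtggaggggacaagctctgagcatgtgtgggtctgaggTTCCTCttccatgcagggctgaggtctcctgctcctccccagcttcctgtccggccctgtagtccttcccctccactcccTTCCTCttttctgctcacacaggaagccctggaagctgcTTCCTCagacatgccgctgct
CEBPA, chr19:33302485-33302784, minus strand: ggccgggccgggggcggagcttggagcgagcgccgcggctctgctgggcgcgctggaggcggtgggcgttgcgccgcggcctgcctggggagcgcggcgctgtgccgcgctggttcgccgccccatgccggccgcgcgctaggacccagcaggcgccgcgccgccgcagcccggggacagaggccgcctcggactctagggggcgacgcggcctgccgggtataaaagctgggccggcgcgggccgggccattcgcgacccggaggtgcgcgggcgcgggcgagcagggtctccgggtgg
CD14, chr5:140633126-140633425, minus strand: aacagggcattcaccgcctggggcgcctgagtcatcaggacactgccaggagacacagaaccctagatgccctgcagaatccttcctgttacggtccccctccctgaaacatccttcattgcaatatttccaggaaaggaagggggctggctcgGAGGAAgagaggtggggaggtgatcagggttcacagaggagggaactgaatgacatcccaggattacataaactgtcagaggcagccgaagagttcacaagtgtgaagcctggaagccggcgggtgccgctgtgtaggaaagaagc

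The CD33 promoter held 3 CpG and had a GC content of 59.0%, while the CEBPA promoter held 50 CpG and had a GC content of 80.7%. The observed over expected CpG ratio of the CEBPA promoter, 1.05, was reached by 5.04% of the 35116 promoters of the table. The ratio of the CD33 promoter was 0.117, higher than that of 11.6% of them. CD14 lay between them, with a ratio of 0.350 and 8 CpG. GAGGAA occurred at 3 places in the CD33 promoter, at 1 in CD14 and at none in CEBPA, and 27.9% of all promoters of the table held it. None of the 3 sequences shown held TTGCNNAA, a C/EBP core, or TGTGGT, a RUNX core, which 10.5% and 13.1% of all promoters held on either strand. The 3 starts listed for S100A8, which had no peak, had CpG ratios from 0.0912 to 0.101, below that of CD33. ANPEP, also without a peak, had ratios of 0.815 and 0.331 at its 2 starts. One of the starts listed for CSF1R held GAGGAA at 3 places, as many as CD33, with a ratio of 0.183. The S100A8 starts and this CSF1R start were not placed in hg19. The peak nearest S100A8 lay 43.1 kb beyond the end of its body, farther than the 32.6 kb span that RefSeq gives the gene. If the CSF1R starts are spaced in hg19 as in GRCh38.p14, this one falls in the stretch of the gene free of peaks described below. The motif counts are matches of letters and were not examined as binding sites.

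NFE2, a subunit of the NF-E2 transcription factor that is needed for platelet formation and is also made in erythroid and myeloid cells, carried the most of the mark. Peaks covered 76.7% of its window, and the next in order, CSF1R, had 18.2%. A single peak of 20915 bp (chromosome 12, 54687650 to 54708564 in hg19) ran from 13.6 kb upstream of the start to 7.35 kb inside the gene. Its fold was 11.3, rank 1343 of all peaks, with a -log10 q of 81.8, and it was rank 464 by width. A second peak began 14.8 kb downstream of the start, beyond the end of the gene (54671235 to 54680218, 8984 bp), with a fold of 10.5. The next protein-coding gene on that side in GRCh38.p14 is HNRNPA1, a broadly expressed splicing factor gene. Peaks covered 81.7% of the NFE2 body, 90.4% of the 15 kb upstream and 59.9% of the 15 kb downstream. After joining peaks within 12.5 kb of each other, both fell into a domain of 60.5 kb with 6 peaks (54671235 to 54731749), which ranked 279 of 25510 regions by summed fold times width. It reached past the NFE2 window on the upstream side, with a peak of fold 6.64 there (54713041 to 54720276). COPZ1 is the next protein-coding gene on that side in GRCh38.p14. The domain was among the 1421 large domains, and NFE2 was the only 1 of the 10 genes with a peak in any of them. Large domains thus held 2 of the 21 peaks, beside 21.1% of all peaks.

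CEBPA, the transcription factor C/EBP-alpha that starts granulocyte differentiation, had no peak over its start or body. The nearest was a peak of 699 bp (chromosome 19, 33789967 to 33790665) with a fold of 2.30, which lay 2.34 kb from the start and 0.335 kb beyond the end of the gene, a gap within the rounding of the coordinates. A second, of 2762 bp, lay 7.74 kb upstream (33800741 to 33803502, fold 2.55). Their -log10 q values were 1.39 and 2.05, and they ranked 43836 and 35378 of all peaks by fold.

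The receptors for colony-stimulating factors had no peak at their starts. CSF3R, the receptor for granulocyte colony-stimulating factor, had no peak over its 17 kb body or the 15 kb upstream. Its strongest peak (chromosome 1, 36928879 to 36931451, 2573 bp) had a fold of 7.55 and lay 17.5 kb from its start, 0.549 kb beyond the end of the gene, which is also within that rounding. A weaker peak of fold 3.03 followed on the same side (36923154 to 36924149). The next coding gene there in GRCh38.p14 is MRPS15, which encodes a protein of the mitochondrial ribosome.

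CSF1R, the receptor of the macrophage factor CSF1, had 3 peaks, all in or beyond the far part of the gene. A peak of 6000 bp (chromosome 5, 149443077 to 149449076) lay wholly inside the gene, 43.9 to 49.9 kb from the start, with a fold of 3.97. The next (149429512 to 149433889, 4378 bp, fold 3.67) overlapped the end of the gene by 890 bp, which is within the rounding of the coordinates. The strongest (149422631 to 149428590, 5960 bp, fold 7.38) lay 4.41 kb beyond that end, on the side of HMGXB3. The first 43.9 kb of the gene and the 15 kb upstream were free of peaks. RefSeq lists more than 1 start for CSF1R, and only the outer one was placed here. On the minus strand of GRCh38.p14, the promoter sequence of the outer start ends at 150113615 and that of the inner start at 150086804. With the same spacing in hg19, the inner start falls in that stretch of the gene free of peaks.

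Among the surface antigens, CD33 was marked and ANPEP was not. CD33, an inhibitory receptor that binds sialic acid, had a peak of 3888 bp across its start (chromosome 19, 51727356 to 51731243), from 0.644 kb upstream to 3.24 kb inside the gene. Its fold of 5.25 was higher than that of 72.1% of all peaks, with a -log10 q of 15.9. CD33 had the most peaks of the 10 genes, 5 in its window. The other 4 were 358 to 2131 bp wide, with folds of 2.14 and 3.34 upstream and 3.44 and 2.25 downstream. RefSeq gives CD33 a span of 28.9 kb, against the 15 kb body used here. The peaks called downstream could therefore lie inside the longer span, which was not placed in hg19. ANPEP, the aminopeptidase known as CD13, had no peak in its window of 60 kb, and the nearest to its start was 60.1 kb upstream with a fold of 2.02. CD14, the monocyte co-receptor for lipopolysaccharide, had no peak over its gene but a pair upstream. The nearer (chromosome 5, 140018517 to 140020015, 1499 bp) was 5.52 kb from the start with a fold of 7.75. The farther (140026104 to 140028524, 2421 bp, fold 5.27) crossed the edge of the window. TMCO6 overlaps CD14 in the GRCh38.p14 table, and NDUFA2, a subunit of mitochondrial complex I, is the next coding gene upstream.

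Among the genes for granule and cytoplasmic proteins, MPO and LYZ had a peak at the start with a fold below 4, and S100A8 had none. MPO, the peroxidase of neutrophil granules, had a peak across its start (chromosome 17, 56357345 to 56363304, 5960 bp), with a fold of 3.93, higher than that of 61.9% of all peaks, and a -log10 q of 7.89. It lay mostly upstream. A second peak, 2.38 kb inside the gene, had a fold of 3.06 over 901 bp. LYZ, which encodes the lysozyme of granulocytes and monocytes, had a peak of only 590 bp at its start (chromosome 12, 69742106 to 69742695), with a fold of 2.74 and a -log10 q of 3.83. The strongest peak of its window (69751370 to 69755754, 4385 bp) had a fold of 9.70 and a -log10 q of 67.9, rank 3112 by fold. It lay 3.37 kb beyond the end of LYZ, on the side of YEATS4, a subunit of chromatin-modifying complexes. S100A8, which encodes a subunit of calprotectin, had no peak in its window of 32 kb, and the nearest was 45.1 kb downstream (fold 2.92). Its partner S100A9 and the myeloid receptor gene TLR2 were the only genes of a further list of 30 myeloid genes that could be placed in hg19. Neither had a peak within 1 kb of a start, with nearest peaks at 11.5 kb (fold 2.92) and 32.3 kb (fold 2.41). The peak nearest S100A9 was the same as that nearest S100A8.

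**Figure D2:**
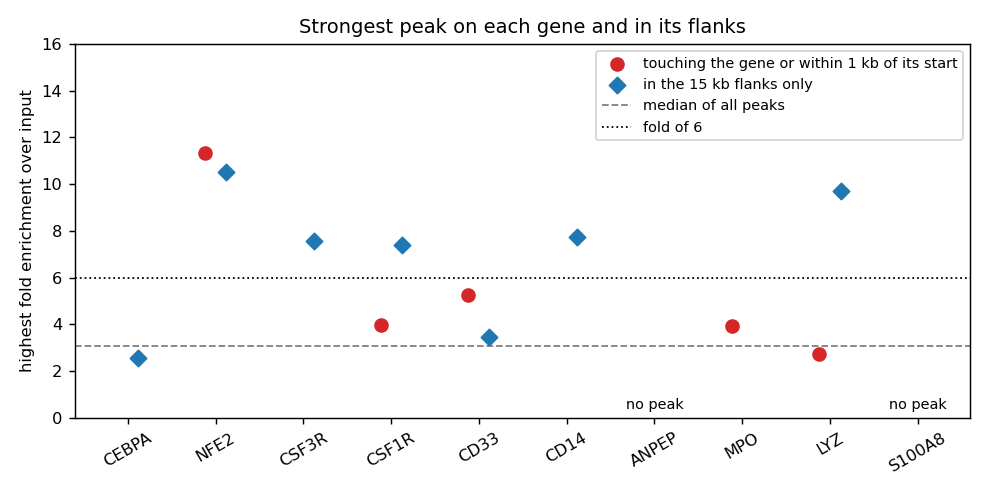
For each gene on the x axis, the y axis gives the highest fold over input among peaks that touch the gene or lie within 1 kb of its start (red circles) and among peaks in the 15 kb flanks only (blue diamonds); the dashed line is the median of all 52203 peaks, 3.08, and the dotted line a fold of 6. At LYZ and CSF1R the flank holds the stronger peak, at CSF3R, CD14 and CEBPA the flank holds all peaks, and at NFE2 and CD33 the gene holds the stronger one.

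The flanks, which made up 300 of the 454 kb, held 14 of the 21 peaks and 5 of the 6 strong ones. In all, 6 of the 21 peaks (28.6%) had a fold of 6 or more, near the 23.2% of all peaks that did. Of these 6, only the peak across the NFE2 start touched one of the 10 genes. The other 5 lay in the flanks of NFE2, LYZ, CD14, CSF3R and CSF1R. The 7 peaks on a gene or at its start had a median fold of 3.93 and the 14 in the flanks one of 3.39, beside 3.08 for all peaks. A fold of 6 or more was reached by 14.3% of the former and 35.7% of the latter, which rest on few peaks and were not tested. This split used the gene bodies as given, and the RefSeq span of CD33 is longer. The flank peaks of fold 7.55 at CSF3R and 2.30 at CEBPA lay 0.549 and 0.335 kb from the gene, within the rounding. The CSF1R peak of fold 3.67 overlapped its gene by 890 bp, also within the rounding. These peaks could fall on the other side of the split. Whether the flanking peaks belong to neighbouring genes was not tested, since the neighbours were known by name and order alone.

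**Figure D3:**
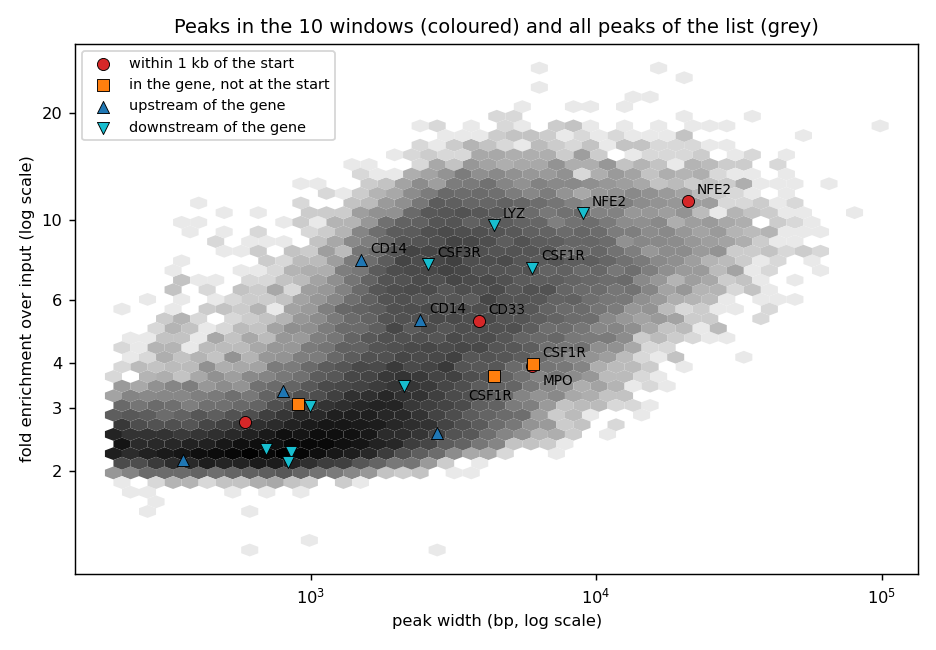
Peak width in bp is on the x axis and fold over input on the y axis, both on log scales; grey cells are all 52203 peaks, darker where more peaks lie, and coloured symbols are the 21 peaks of the 10 windows by their place relative to the gene, with gene names above a fold of 3.6. The NFE2 peak of 20915 bp stands at the upper right, the peak at the LYZ start at the lower left, and the CD33 and MPO peaks between them.

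The count of starts can be set against a small reference. In the hg19 sample of known genes, 26 of 38 protein-coding genes (68.4%) had a peak within 1 kb of a start, and among all 2 kb tiles of the autosomes and chromosome X a peak touched 8.14%. Among the myeloid genes it was 4 of 10, each with a single start. The way that sample was drawn is unknown, and its genes can have several starts, each of which counted.

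A peak was found in 8 of the 10 windows. Of all genome tiles as long as the windows, 35.4% held one, from 31.8% at 32 kb, the length of the CEBPA, CD14 and S100A8 windows, to 49.6% at 90 kb, that of CSF1R. A peak of fold 6 or more was found in 5 of the 10 windows and in 15.4% of these tiles. Tiles include gene-poor sequence and assembly gaps, which windows around genes do not, so the shares are no like-for-like reference. Peaks covered 17.04% of the windows together, against 4.90% of the genome. NFE2 weighed heavily in this, and without it the covered share of the windows was 11.4%. The bodies of the 10 genes were covered to 12.7% and the flanks to 19.2%.

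**Figure D4:**
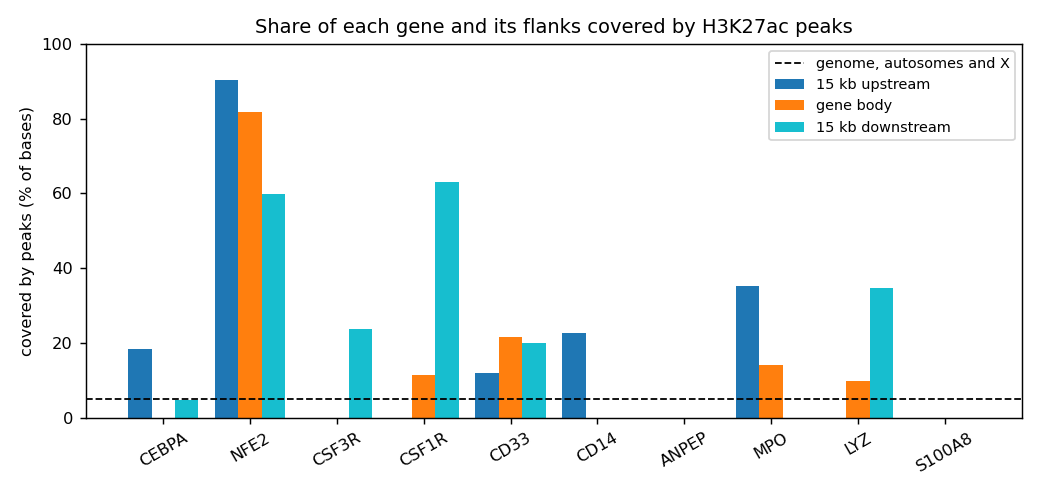
For each gene, bars give the percent of bases covered by peaks in the 15 kb upstream, the gene body and the 15 kb downstream; the dashed line is the share of the autosomes and chromosome X covered, 4.90%. NFE2 is covered in all 3 parts, CSF1R most in the part beyond its end (63.0%), MPO most upstream (35.4%), and ANPEP and S100A8 in none.

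The limit of 15 kb set which peaks were counted. Just inside it were the peak 13.3 kb upstream of CD33 (fold 3.34), that 13.1 kb upstream of CD14 (fold 5.27) and that 11.4 kb beyond the end of LYZ (fold 2.11). Just outside were peaks 15.5 kb upstream of NFE2 (fold 2.58), 16.4 kb beyond the CD33 body used here (fold 7.27) and 16.6 kb upstream of LYZ (fold 4.61).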

How the data were processed

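H3K27ac ChIP and input DNA from LOUCY cells were sequenced single-end, 1 library each, per the labels. Per the submitters' processing notes, Bowtie2, MACS2 and hg19 were used, and alignment settings were not stated. Per the file headers, broad peaks were called with MACS2 2.1.0.20140616 against input, keeping 1 tag per position (54357332 ChIP and 71932640 input tags), a filter that caps the strongest peaks. The deposited fold is a ratio of ChIP pileup to local control. The -log10 q-value (and -log10 p-value) that the authors deposited came from the same caller. These values served only to describe and rank peaks. The deposited pileup held impossible negative values and was left out, while folds were used as deposited and were not recomputed.

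Gene bodies were given in hg19 to 1 kb, and 8 of 10 matched RefSeq lengths (GRCh38.p14) within 1 kb; RefSeq spans of CD33 and S100A8 are longer, and the S100A8 starts it lists were not placed. Strands came from the RefSeq promoter table, and for MPO, LYZ and NFE2 from general knowledge. No hg19 genome sequence was used. A start counted as marked with a peak within 1 kb. The hg19 gene sample came from GenomicFeatures 1.54.1 and chromosome lengths from circlize 0.4.16. Peaks were joined within 12.5 kb, and large domains set apart where the slope of the rank curve reached 1. All 10 genes and every peak in their windows are named, and members and lists were chosen with earlier results of these data known. The counts of peaks and covered length were tested on simulated data, with 200 of 200 windows recovered. No simulated peak crossed a window edge, so that case was not tested. Alternatives were thresholds on q and fold, other flanks, overlaps, start windows and joining distances. Python 3.11.15 with numpy 2.4.6, pandas 2.3.3 and matplotlib 3.10.9 was used.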

Additional observations from a re-analysis of the deposited data

How the results depend on the processing

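The 4 marked starts were the same with a window of 0.5 kb, and CEBPA joined them at 2.5 kb. It did so only through the weak peak beyond the end of its short body (fold 2.30, -log10 q 1.39). With the -log10 q raised to 5 or more there were 3 (not LYZ), and at 10 or more there were 2, CD33 and NFE2. The 21 peaks became 12 and 8 under these thresholds, which remove weak peaks, 7 in the gene bodies alone, 12 with flanks of 5 kb and 47 with flanks of 50 kb. Genes with a peak numbered 5 for the bodies alone and between 6 and 10 otherwise. Peaks of fold 6 or more numbered 1 in the bodies, 13 with flanks of 50 kb, and 2 had a fold of at least 10. The covered share of 17.04% was 14.8% and 11.0% under the q thresholds, 12.7% in the bodies, 15.6% with flanks of 5 kb and 11.9% with 50 kb. The median of the highest fold was taken over the genes with a peak, so the set of genes changed with the setting. It was 7.47 over 8 genes, and 7.55 over 7 and 7.65 over 6 under the same thresholds. In the bodies it was 3.97 over 5 genes, with flanks of 5 kb 7.38 over 7, and with 50 kb 7.66 over 10. ANPEP and S100A8 gained their first peak with flanks of 50 kb (folds 9.03 and 2.92). With peaks joined within 5 kb, 1 of the 21 peaks, in place of 2, lay in a large domain. Requiring at least 50% of a peak inside the window left the number of peaks, of genes with a peak and of peaks of fold 6 or more, the covered share and the median highest fold as they were. No paired analysis was possible because each group held a single library. Depth cannot show how far a fold would vary between repeats.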

Other observations

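All of the genes but LYZ and NFE2 had a stronger peak, or their first, beyond the 15 kb windows and within 100 kb of the gene. These were looked at after the values in the windows were known. Of all genome tiles of 90 kb, 25.7% held a peak of fold 6 or more. No such share was computed for surroundings of 100 kb on either side, which are longer. Whether the peaks belong to these genes was not tested. Downstream of CEBPA, 31.6 to 49.1 kb from its start, lay a peak of 17464 bp (chromosome 19, 33743916 to 33761379) with a fold of 7.56 and a -log10 q of 34.7. An enhancer of CEBPA that is active in human myeloid progenitors is known downstream of the gene, but its hg19 position was not at hand and an overlap was not tested. Between this peak and the window lay 4 weaker peaks with folds from 2.16 to 3.06. A stronger peak lay on the other side, 70.8 kb upstream of CEBPA (33863766 to 33868365), with a fold of 8.96 and a -log10 q of 46.6. It was the strongest of the 14 peaks within 100 kb of CEBPA.

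The third-strongest peak of the whole list lay upstream of MPO (chromosome 17, 56404851 to 56425431, 20581 bp), with a fold of 24.2 over input, while the peak across the MPO start had 3.93. It began 46.9 kb from the MPO start, past 4 peaks with folds from 2.44 to 4.25. The next coding gene on that side in GRCh38.p14 is TSPOAP1. Around CD33, a peak lay 16.4 kb beyond the end of the 15 kb body used here. Its fold was 7.27, above the 5.25 of the peak at the CD33 start. The distance of this peak from the longer RefSeq span of CD33 was not measured. Around S100A8, by contrast, the strongest of the 3 peaks within 100 kb had a fold of 3.88, the lowest such maximum of the 10 genes. Within 100 kb of ANPEP there were 4 peaks, of which the strongest, 78.4 kb upstream, had a fold of 10.3.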
